A study of Mus musculus with 13 samples.

Results

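Elastic fibre and microfibril genes encode the stretchable part of the extracellular matrix, and 10 of them were followed in the cerebral meninges of newborn mice: Eln, Fbn1, Fbn2, Fbln1, Fbln2, Fbln5, Emilin1, Mfap4, Mfap5 and Lox. The list follows gene families and uses no measured value in its rule, though it was drawn up with earlier results of these data known. Of the 10 genes 9 were measured by a probe set with a single gene symbol, 1 probe set for each, out of 19938 genes tested in all. For Fbn1 the probe annotation used here pairs no probe set with the symbol, so its level was not analysed. RNA came from 13 pups of the strain C57BL6, all from 1 litter, with 1 pup on each Affymetrix Mouse Gene 1.0 ST array. The 4 mutants were Pdgfc-/-; Pdgfra GFP/+, which lack the ligand PDGF-C and 1 functional copy of its receptor gene, since in the GFP allele the receptor is replaced by a nuclear GFP reporter under control of the Pdgfra promoter. The 9 controls were pooled littermates, some without the GFP allele (Pdgfc-/-, Pdgfc+/- or Pdgfc+/+) and some with it (on a Pdgfc+/- or Pdgfc+/+ background). The labels do not say which control has which genotype, so single controls can carry either mutation alone.

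An elastic fibre has a core of elastin, the product of Eln, laid down on a scaffold of thin microfibrils. Microfibrils are chains of fibrillins, the products of Fbn1 and Fbn2, decorated with the small glycoproteins of the Mfap genes. Fibulins and emilin-1 link elastin to the microfibrils and to cells, and lysyl oxidase (Lox) cross-links elastin and collagen into an insoluble network. In the meninges such fibres lie among the collagen-producing fibroblasts and in the walls of arteries.

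The members went different ways in mutant meninges. Fbln5, Emilin1 and Mfap4 fell and Mfap5 rose, while Eln, the gene of the fibre core, had nearly the same mean intensity in both groups. Fbn2, Fbln1, Fbln2 and Lox did not pass the test. A gene is said to have risen or fallen where the adjusted p of limma over all 19938 genes was under 0.05, on log2(intensity + 16), and changes are given on that log2 scale with their standard error (SE). Folds are taken from the same scale, so they can differ from the ratio of the mean intensities. The added constant makes them smaller, most so for dim genes. By that rule 1 of 9 members rose and 3 fell, while 8.58% of all tested genes rose and 6.31% fell (14.9% in either direction). By the rule in the study's methods, an unadjusted p under 0.05 and a fold over 2, 0 members were higher and 1, Fbln5, was lower, beside 3.28% and 0.797% of all genes. With that fold taken as the ratio of mean intensities, with no constant added, the members' counts were 0 and 1 again, beside 3.98% and 1.07% of all genes. The median log2 fold change of the 9 members was 0.04, beside 0.00430 over all tested genes. The same 4 members had groups that did not overlap, 3 with every mutant below every control (3.04% of all genes) and 1 with every mutant above (6.4% of all genes), which makes 4 of 9 members beside 9.44% of all genes. In whole tissue, fewer cells of a type and less RNA per cell cannot be told apart.

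Upstream sequence is shown for Fbln5 and Emilin1, which fell, and for the related fibulin gene Fbln2, so that the start regions of 2 fibulins with different calls can be read beside each other. It comes from a table of RefSeq promoters (GRCm38.p6) in which 5 of the 10 genes were matched, Mfap4 not among them. The stretches below are the 250 bases before the annotated start, in the direction of transcription. Capitals mark the GC box (GGGCGG or its reverse complement CCGCCC) and the SMAD element (CAGACA or TGTCTG). The TATA box (TATAAA or TTTATA) and the AP-1 site (TGANTCA) were searched on both strands too and did not occur in these 3 windows.
Fbln5, chr12:101819120-101819369, minus strand: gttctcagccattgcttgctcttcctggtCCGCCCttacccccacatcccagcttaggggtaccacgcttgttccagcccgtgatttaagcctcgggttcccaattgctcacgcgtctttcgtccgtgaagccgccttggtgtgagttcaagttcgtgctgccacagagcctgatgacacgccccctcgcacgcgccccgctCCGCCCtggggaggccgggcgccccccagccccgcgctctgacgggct
Emilin1, chr5:30913536-30913785, plus strand: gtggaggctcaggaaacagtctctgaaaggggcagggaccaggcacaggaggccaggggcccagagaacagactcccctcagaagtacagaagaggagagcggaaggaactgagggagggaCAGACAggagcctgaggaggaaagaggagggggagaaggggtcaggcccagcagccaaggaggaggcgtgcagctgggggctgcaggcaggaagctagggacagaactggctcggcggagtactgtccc
Fbln2, chr6:91212514-91212763, plus strand: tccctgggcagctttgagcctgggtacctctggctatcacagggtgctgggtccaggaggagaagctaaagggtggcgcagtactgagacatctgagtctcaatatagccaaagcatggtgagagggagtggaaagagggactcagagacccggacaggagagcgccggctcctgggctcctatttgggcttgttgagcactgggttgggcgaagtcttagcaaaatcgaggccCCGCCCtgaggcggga

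The Fbln5 window held a GC box starting 221 and another 48 bases before the start, the Fbln2 window held one at 16 bases, and the Emilin1 window held a SMAD element at 129 bases. Over all 32851 mouse promoter windows of this length, 32.7% held a GC box and 17.1% a SMAD element, so neither motif is rare. GC content was 65.2% for Fbln5, 63.2% for Emilin1 and 58.8% for Fbln2, with a median of 52.4% over all windows. Fbln5 has a further annotated start downstream, whose window held a SMAD element and no GC box. A SMAD element also lay in the overlapping windows of the annotated starts of Fbln1, which was not called and is not shown. The window of its downstream start held a GC box too. These matches describe the letters only. Binding to these regions was not measured.

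Eln, the gene of elastin, had intensities of 558, 652, 617 and 896 in mutants 1 to 4, and the controls ran from 401 through a median of 596 to 1101. All 4 mutants lay inside the control range, and the mean was 681 ± 149 (SD, n = 4) for the mutants against 679 ± 222 (SD, n = 9) for the controls. The log2 change was 0.04 (SE 0.21, adjusted p = 0.987), with a 95% interval of -0.39 to 0.48. Eln was the most variable member among the controls, with a coefficient of variation of 32.8%, against 9.04% to 17.7% for the other 8 members. Its spread came from controls 1 and 5, at 1101 and 979, while the other 7 controls lay between 401 and 697. Without control 1 the log2 fold change was 0.14, and with a term for the Xist level it was -0.33 (adjusted p = 0.636).

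Lox, the cross-linking enzyme, had intensities of 1256, 1956, 1372 and 1963 in mutants 1 to 4 and of 1132 to 1536 in controls, with a control median of 1319. Mutants 2 and 4 stood above every control and mutants 1 and 3 within their range. The log2 change was 0.29 (SE 0.14, adjusted p = 0.221), which did not pass the test, with a 95% interval from just under 0 to 0.57. The mutants spread more widely than the controls, with coefficients of variation of 23.0% and 9.04%.

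Emilin1, whose product sits between elastin and the microfibrils, had intensities of 190, 223, 198 and 272 in mutants 1 to 4. The controls ran from 295 through a median of 370 to 419, so the brightest mutant lay below the dimmest control. Emilin1 fell 1.59-fold, with a log2 change of -0.67 (SE 0.14, adjusted p = 0.00147).

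**Figure D1:**
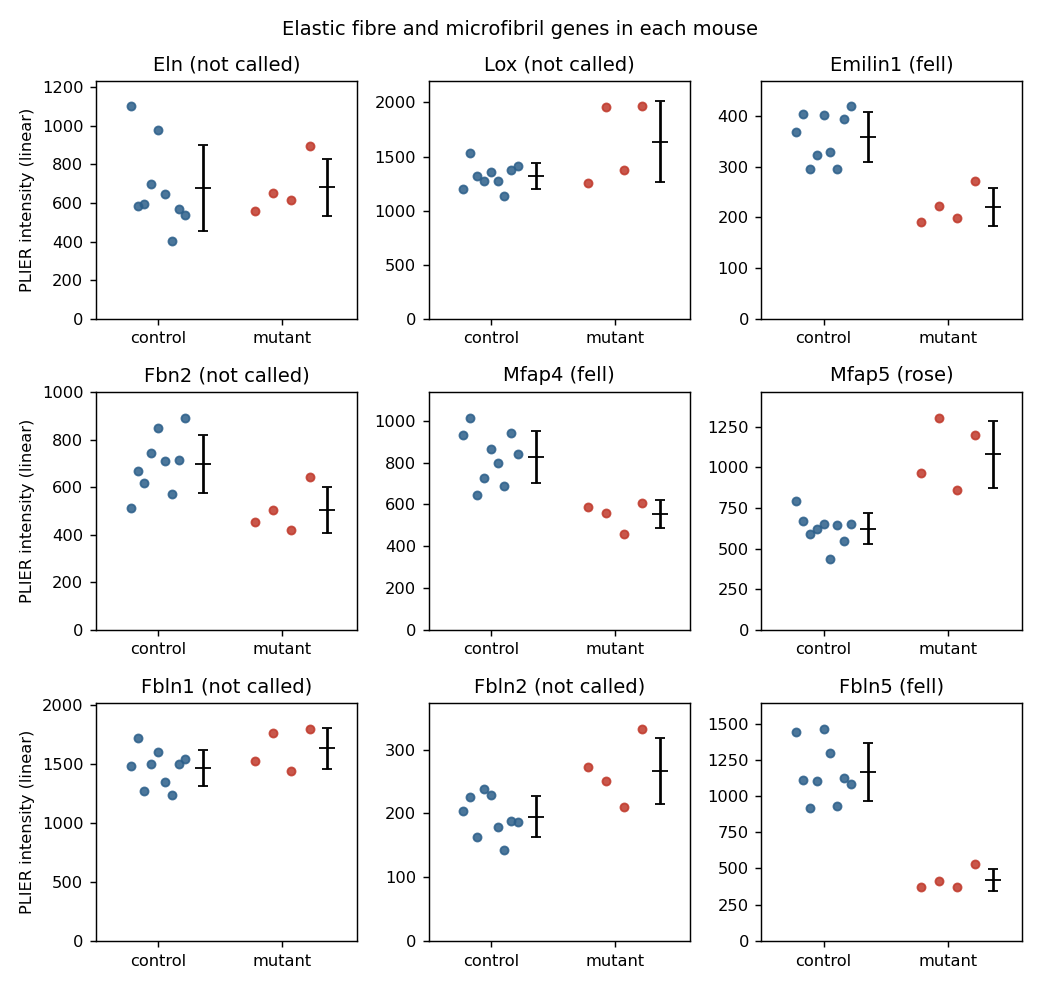
PLIER intensity on a linear scale in each mouse for the 9 measured members, with points for single mice (9 controls in blue, 4 mutants in red, in order of replicate number) and a bar for the mean and SD of each group. For Fbln5 the mutants lie between 369 and 533 and the controls between 918 and 1464, while for Eln the mutants, at 558 to 896, lie inside the control range of 401 to 1101.

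Fbn2, the fibrillin made mostly before birth, had intensities of 455, 503, 420 and 642 in mutants 1 to 4, and the controls ran from 513 through a median of 711 to 893. Mutants 1, 2 and 3 were below every control, and mutant 4 was within the control range. The log2 change of -0.45 (SE 0.15) had an adjusted p of 0.0546, just outside the threshold. Fbn2 was called as lower under 11 of 30 other settings, among them quantile normalization (adjusted p = 0.00329) and leaving out the dimmer 25% of genes (0.0396).

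Mfap4, a microfibril-associated glycoprotein that binds elastin and fibrillin, had intensities of 588, 558, 458 and 608 in mutants 1 to 4 and of 647 to 1015 in controls, with a control median of 842. All 4 mutants were below all 9 controls. Mfap4 fell 1.48-fold, with a log2 change of -0.56 (SE 0.14, adjusted p = 0.00705). With each array centred on fibroblast genes its change was -0.19 (adjusted p = 0.168), which did not pass.

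Mfap5, also called MAGP-2, is a microfibril glycoprotein that binds fibrillins, and it went the other way. Its intensities were 964, 1307, 858 and 1198 in mutants 1 to 4, and the controls ran from 438 through a median of 647 to 794. The dimmest mutant was thus above the brightest control. Mfap5 rose 1.71-fold, with a log2 change of 0.78 (SE 0.15, adjusted p = 8.74e-04). With a test that allows unequal variances its adjusted p was 0.0547.

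Of the 3 fibulins Fbln5 fell and the other two were not called. Fbln1, the gene of fibulin-1, had intensities of 1528, 1763, 1436 and 1797 in mutants 1 to 4 and of 1235 to 1718 in controls, with a control median of 1496. The groups overlapped, and the log2 change of 0.15 (SE 0.12, adjusted p = 0.594) did not pass the test, and its 95% interval was -0.10 to 0.41.

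Fbln2, whose product binds elastin, fibrillin and basement membrane proteins, had intensities of 273, 251, 209 and 333 in mutants 1 to 4. The controls ran from 142 through a median of 188 to 238, so mutants 1, 2 and 4 were above every control and mutant 3 was among them. The log2 change of 0.42 (SE 0.15) had an adjusted p of 0.0656. It was called as higher under 9 of 30 other settings, without mutant 3 among them (0.52, adjusted p = 0.0320).

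Fbln5, which encodes fibulin-5, a protein that tethers elastin to microfibrils and to integrins on cells, moved most among the members. Its intensities were 373, 411, 369 and 533 in mutants 1 to 4. The controls ran from 918 through a median of 1108 to 1464, which leaves a wide gap between the groups. Fbln5 fell 2.69-fold, with a log2 change of -1.43 (SE 0.15, adjusted p = 5.35e-07). It stood 54th from the lowest among the log2 fold changes of all 19938 genes, and it was the only member past the 2-fold limit of the study's methods.

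Several facts about the mice and arrays are given beside these calls. Pdgfc, the deleted gene, was at 22.8 to 29.3 in mutants and at 103 to 275 in controls other than control 2, which was at 5.88. Pdgfra was at 788 to 1561 in mutants and at 1039 to 2255 in controls. Without control 2 the counts were 1 member risen and 3 fallen. Xist, a transcript of the inactive X chromosome of females, was at 2.24 to 4.77 in all mutants and at 4.78 to 8.73 in controls 1, 5 and 8, but at 536 to 1020 in the other 6 controls. By this transcript the groups differed in sex as well as in genotype. With a term for the Xist level 1 member rose and 3 fell, at log2 changes of -1.64 (Fbln5, adjusted p = 3.94e-06), -0.78 (Emilin1, 0.00719), -0.72 (Mfap4, 0.0129) and 0.67 (Mfap5, 0.0422). The median intensity of an array was 56.0 to 89.7 in mutants and 44.1 to 89.0 in controls. Without the 4 arrays of lowest median intensity 2 members rose and 4 fell, Fbln2 and Fbn2 being added.

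Marker genes of other cell types moved with the groups. The summed intensity of 15 neuronal genes was 15420 to 18900 in mutants against 1731 to 4631 in controls, and all 15 rose. Of 11 endothelial genes 8 fell, of 9 genes of border macrophages 8 fell, of 8 microglial genes 1 rose and 5 fell, and of 10 astrocyte genes 5 fell. Of 8 genes of the arachnoid, the middle layer of the meninges, 4 fell, with a summed intensity of 6402 to 10830 in mutants and 11560 to 14030 in controls, and of 7 genes of dura and skull 2 fell. Among 15 markers of meningeal fibroblasts, cells that make much of this matrix, Col1a1 and Col3a1 rose, while Ptgds (-1.46), Crabp2 (-1.25), Slc6a13 (-1.08), Nov (-0.92) and Pdgfra (-0.71) fell, and the summed intensity was 30440 to 45530 in mutants and 38840 to 50780 in controls. Of 12 genes of pericytes and of smooth muscle cells, which make elastic fibres in vessel walls, none passed in limma. None passed in tests with equal or unequal variances either, and 1 was higher and 1 lower at an unadjusted p under 0.05. Their sum was 3372 to 4176 in mutants and 3014 to 5779 in controls. The part of these cells in the results for the members was not tested. Crabp2 counts as a fall in the lists of arachnoid, of dura and skull, and of fibroblasts. Slc6a13 counts as a fall in those of arachnoid and fibroblasts. The falls and sums of these lists are thus not separate.

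Which members passed besides Fbln5, Emilin1 and Mfap5 depended on what the arrays were scaled to. Of 8 reference genes 0 rose and 2 fell, B2m at -0.65 (adjusted p = 0.00524) and Sdha at -0.43 (adjusted p = 0.0301). Centring each array on these 8 added 0.17 to the log2 fold change of every gene. Centring on 14 meningeal fibroblast genes added 0.37. With these shifts in, 4 members rose and 3 fell centred on reference genes, and 4 rose and 2 fell on fibroblast genes. Of all 19938 genes 3164 rose and 767 fell centred on reference genes, and 8270 rose and 485 fell on fibroblast genes. Quantile normalization gave 4 rises and 4 falls, beside 2668 and 3617 of all genes. In each of these 3 settings the rises were Mfap5, Fbln1, Fbln2 and Lox. Centred on the array median 1 member rose and 4 fell, beside 1808 and 2862 of all genes. In that setting Mfap5 rose and Fbn2 (-0.55, adjusted p = 0.00152) was added to the falls. Fbln1 (0.06, adjusted p = 0.786), Fbln2 (0.32, 0.0553) and Lox (0.19, 0.377) were not called there. Against the fibroblast genes Fbln5 was lower by -1.05 (adjusted p = 7.86e-06) and Emilin1 by -0.29 (0.0186), while Mfap4 at -0.19 was no longer called (adjusted p = 0.168). Fbln5, Emilin1 and Mfap4 were negative and Mfap5 positive in 30 of 30 other settings, with Fbln5 and Emilin1 called in each.

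**Figure D2:**
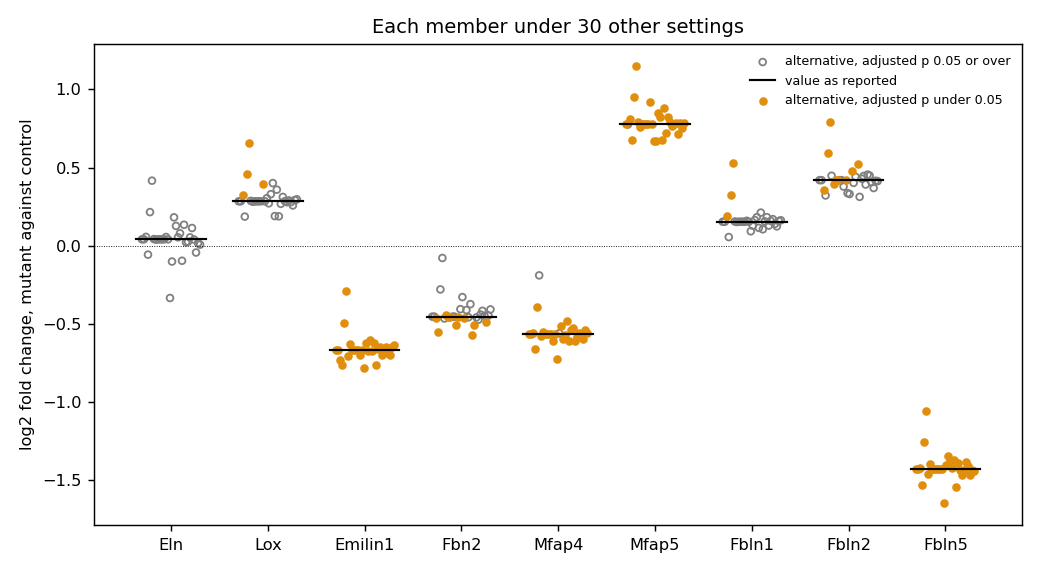
Log2 fold change of each member, mutant against control, as reported (black line) and under 30 other settings (points, filled where the adjusted p was under 0.05). Fbln5 stays between -1.64 and -1.05 and Eln runs from -0.33 to 0.42 without a call.

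To compare members within a mouse, the log2 value of one was subtracted from that of another on the same array. This removes a shift in log2 value that is equal for all genes of the array. A brightness effect that differs with intensity is not removed. Of 9 pairs set by family or role 7 could be formed, the other 2 needing Fbn1. All 715 ways to draw 4 of the 13 mice were used for a two-sided exact permutation p of each difference, with 0.0014 as the smallest possible, and the p-values were adjusted over the 7 pairs. The changes differed in 6 of 7 pairs. The pairs share genes, with Fbln5 in those with Fbln1, Fbln2 and Eln, so they are not independent results.

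Among the fibulins, the change of Fbln1 exceeded that of Fbln5 by 1.58 (SE 0.12, permutation adjusted p = 0.00245), and that of Fbln2 exceeded it by 1.85 (SE 0.12, permutation adjusted p = 0.00245). In both pairs the 4 mutants lay outside the range of the 9 controls. Fbln1 and Fbln2 differed by less, with a difference of -0.27 (SE 0.09, permutation adjusted p = 0.0131), and their groups overlapped. Without mutant 4 that difference was -0.21 with a permutation adjusted p of 0.0583, and after quantile normalization -0.16 with 0.144.

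Mfap4 and Mfap5, which share a family name but not a protein fold, differed in change by -1.34 (SE 0.16, permutation adjusted p = 0.00245). Within an array Mfap4 less Mfap5 was -1.21 to -0.70 in mutants and 0.09 to 0.84 in controls. The sign of the difference between these probe sets has no meaning of its own, since the brightness of different probe sets is not comparable, but the gap between the groups does not depend on it.

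Elastin was compared with proteins that bind or cross-link it. The change of Eln exceeded that of Fbln5 by 1.47 (SE 0.13, permutation adjusted p = 0.00245) and that of Emilin1 by 0.71 (SE 0.21, permutation adjusted p = 0.0131). Eln and Lox differed by -0.24 (SE 0.24, permutation adjusted p = 0.345), which did not pass. In the pair with Fbln5 the mutants did not overlap the controls, and in the pair with Emilin1 control 1 lay among the mutants. Controls 1, 5 and 8, those with low Xist, were at 1.53, 1.25 and 0.51 in that pair, the other controls at 0.34 to 1.07. No pair was run with a term for the Xist level.

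**Figure D3:**
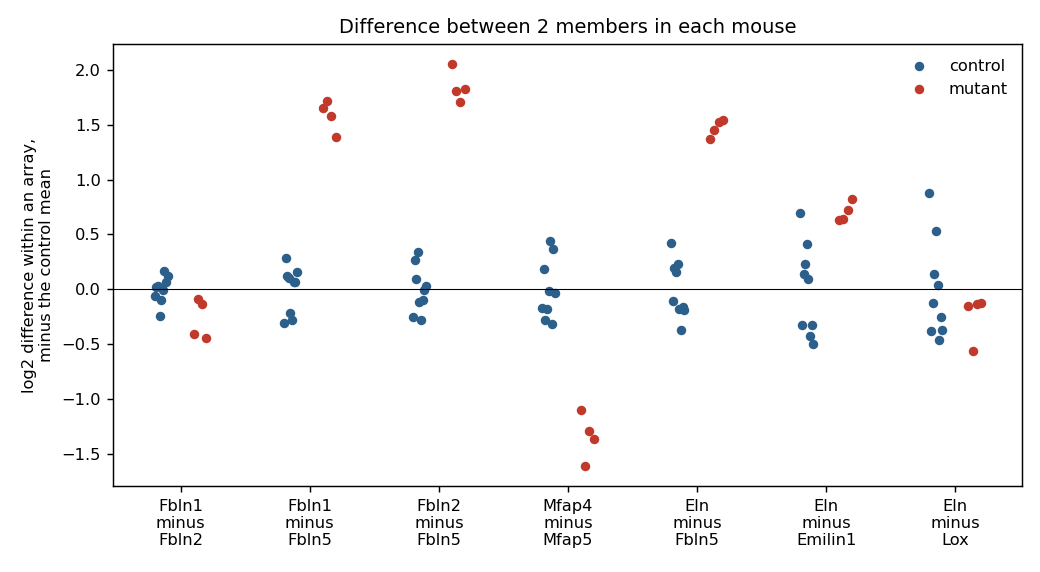
Difference between the log2 values of 2 members on the same array, minus the mean of the controls, for each mouse (blue controls, red mutants) and each of 7 pairs. Mutants and controls are apart in the pairs of Fbln5 with Fbln1, Fbln2 and Eln and in the pair of Mfap4 and Mfap5.

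Within the groups, members varied together to different degrees. With each array centred on its median and the group means removed, Pearson's r over the 13 arrays was 0.901 for Eln and Fbln5, 0.859 for Eln and Fbln2, and 0.852 for Fbln1 and Emilin1. The median r with 10295 genes of a mean intensity of at least 100 was 0.735 for Fbln1 and 0.672 for Emilin1. It was 0.582 for Fbln5, 0.443 for Fbln2 and 0.431 for Eln. High values were thus common for Fbln1 and Emilin1 with genes of any kind. All these values describe the 13 mice, which share a litter, and carry no test. Fbln5, which was lower in mutants, and Eln, which was not called, thus varied together from mouse to mouse. Controls 1 and 5 were highest for both among controls, and mutant 4 was highest for both among mutants. The lowest values were those of Fbn2, with an r of -0.142 with Mfap5 and 0.0936 with Mfap4.

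**Figure D4:**
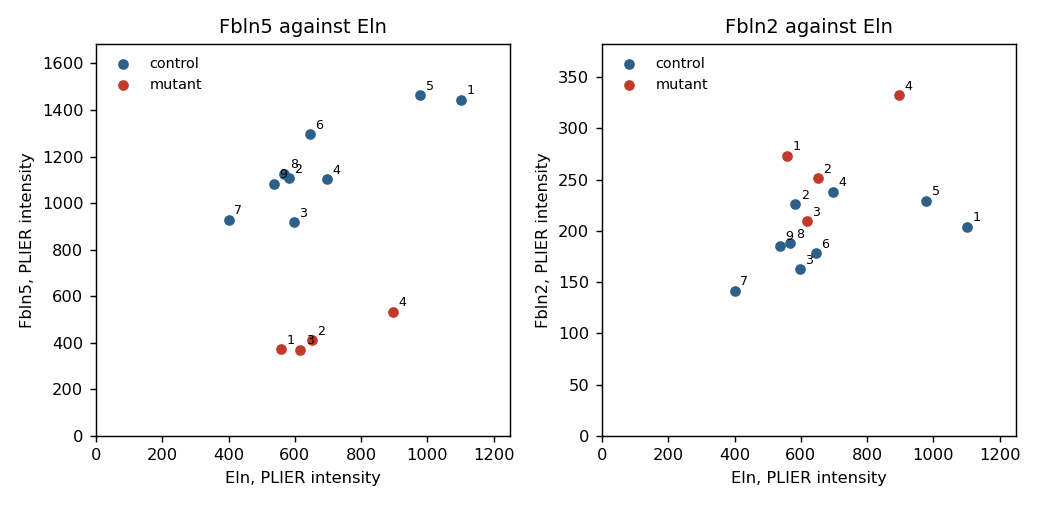
Intensity of Fbln5 (left) and Fbln2 (right) against that of Eln in each mouse, labelled with its replicate number (blue controls, red mutants). Mutants lie on a lower level of Fbln5 at the same Eln, between 369 and 533 against 918 to 1464 in controls.

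The nearest genes to each member by the same measure were sought among genes with a mean intensity of at least 100. For Eln they were Fbln5 (r = 0.901), Ltbp4 (0.891) and Pkd1 (0.867), where the median r over 10295 genes was 0.431. For Fbn2 they were Svep1 (0.902), Cd55 (0.887) and Cfhr3 (0.880). For Mfap5 they were Igfbp6 (0.949), Slc16a9 (0.937) and Mplkip (0.929). For Fbln2 they were Eln (0.859), Ctdsp2 (0.842) and Cgnl1 (0.838).

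For Fbln5 the nearest were Rcor3 (0.959), Eif2d (0.947) and Eml3 (0.938), for Emilin1 Nup85 (0.961), Prmt7 (0.956) and Lonp2 (0.953), and for Mfap4 Nt5c3b (0.972), Commd1 (0.971) and Snrpc (0.968). Those of Fbln1 were Txndc12 and Spag7 (both 0.977) and Nop10 (0.976), and those of Lox were Atraid (0.989), Arhgap29 (0.983) and Strn3 (0.983). High values were common for some members: the share of compared genes with an r over 0.8 was 37.1% for Fbln1, 35.6% for Lox, 19.6% for Emilin1, 11.3% for Mfap4 and 3.98% for Fbln5. It was 0.767% for Mfap5, 0.330% for Fbn2, 0.301% for Eln and 0.126% for Fbln2.

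Around the members stand related genes, of the same families and of enzymes, growth factors, receptors and binding partners, of which 59 were measured. Of these 3 rose and 11 fell, with a median log2 fold change of -0.14, beside the 8.58% and 6.31% of all genes. Without mutant 3 the falls numbered 6. Centred on reference genes 7 rose and 6 fell, centred on fibroblast genes 19 and 4, and centred on the array median 3 and 24. Of 10 other fibulins, emilins and microfibril proteins 1 rose and 3 fell, with a median of -0.21. Mmrn1, a member of the emilin family made by lymphatic endothelium and platelets, fell from a mean of 330 to 44.1, a log2 change of -2.43 (adjusted p = 1.20e-06). Mmrn2, the endothelial member, fell by 0.59 on the log2 scale (adjusted p = 0.0263), in mice where 8 of 11 endothelial genes fell. Mfap2, the microfibril glycoprotein MAGP-1, fell from 1924 to 1442, by 0.42 (adjusted p = 0.0439). Emilin2 rose from 88.2 to 177, by 0.91 (adjusted p = 6.28e-04), so it was called in the opposite direction to Emilin1. A test of the difference between the 2 emilins was not run.

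Of 8 ADAMTS and ADAMTSL genes, whose proteins bind fibrillin or belong to the same family, 3 fell, with a median of -0.29. In limma and in tests with equal or unequal variances 0 of them rose, and at an unadjusted p under 0.05 likewise 0. Thsd4, also called ADAMTSL6, which promotes fibrillin-1 assembly, fell from 864 to 415, by 1.06 on the log2 scale (adjusted p = 9.27e-05). Adamtsl3 fell by 1.05 (adjusted p = 1.32e-05) and Adamts10, which binds fibrillin-1, fell by 0.56 (adjusted p = 0.00636). Adamts6 was at -0.27 (adjusted p = 0.257). For Thsd4 and Adamtsl3 the groups did not overlap.

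Latent TGF-beta binding proteins dock the growth factor on microfibrils. Of 7 genes of this group 1 rose and 1 fell, with a median of -0.06. Ltbp1 rose from 52.5 to 85.3, by 0.57 (adjusted p = 0.00760), and Tgfb1 fell from 356 to 231, by 0.58 (adjusted p = 0.0112). Ltbp3 and Tgfb3 were at -0.40 (adjusted p = 0.0622) and -0.39 (adjusted p = 0.0802).

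Among 7 genes of cross-linking and maturation, Loxl3, a lysyl oxidase, fell by 0.56 on the log2 scale (adjusted p = 0.0114), and 0 rose in limma, at an unadjusted p under 0.05 or in the other tests. Loxl1, the enzyme tied to elastin by fibulin-5, was at -0.29 (adjusted p = 0.246), Bmp1 at 0.27 (adjusted p = 0.213) and the copper pump gene Atp7a at -0.31 (adjusted p = 0.178). Of 12 proteases and inhibitors 2 fell, Mmp2, a gelatinase that can cut elastin, by 0.78 (adjusted p = 0.00140) and Timp3 by 0.48 (adjusted p = 0.0269). None of the 12 rose in limma or the other tests, and 1 was higher at an unadjusted p under 0.05, Timp1, at 0.32 (adjusted p = 0.134). Mmp7 had a value of -0.53 (adjusted p = 0.151).

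Of 10 genes of cell receptors 1 rose and 1 fell. Itgb8, an integrin subunit that releases TGF-beta, rose by 0.51 on the log2 scale (adjusted p = 0.0326), and Ctsa, a subunit of the elastin receptor complex, fell by 0.45 (adjusted p = 0.0200). The integrin subunit genes Itgb1 and Itga8 were at -0.32 (adjusted p = 0.147) and -0.38 (adjusted p = 0.154). For 5 large partners of the microfibril, limma and the tests with equal or unequal variances called 0 in either direction, with 1 higher and 1 lower at an unadjusted p under 0.05. They were Bgn, at -0.34 (adjusted p = 0.102), Vcan, at 0.34 (adjusted p = 0.122), Fn1, at -0.23 (adjusted p = 0.319), Hspg2, at 0.15 (adjusted p = 0.737) and Dcn, at -0.10 (adjusted p = 0.860).

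Some of these calls depended on the variance model. With unequal variances Mfap2 (adjusted p = 0.207), Thsd4 (0.0979), Loxl3 (0.0847), Mmp2 (0.0848), Timp3 (0.279), Itgb8 (0.107) and Ctsa (0.223) were no longer called. With equal variances and no pooling across genes, Mmrn2 (0.0596) and Itgb8 (0.0535) were not.

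**Figure D5:**
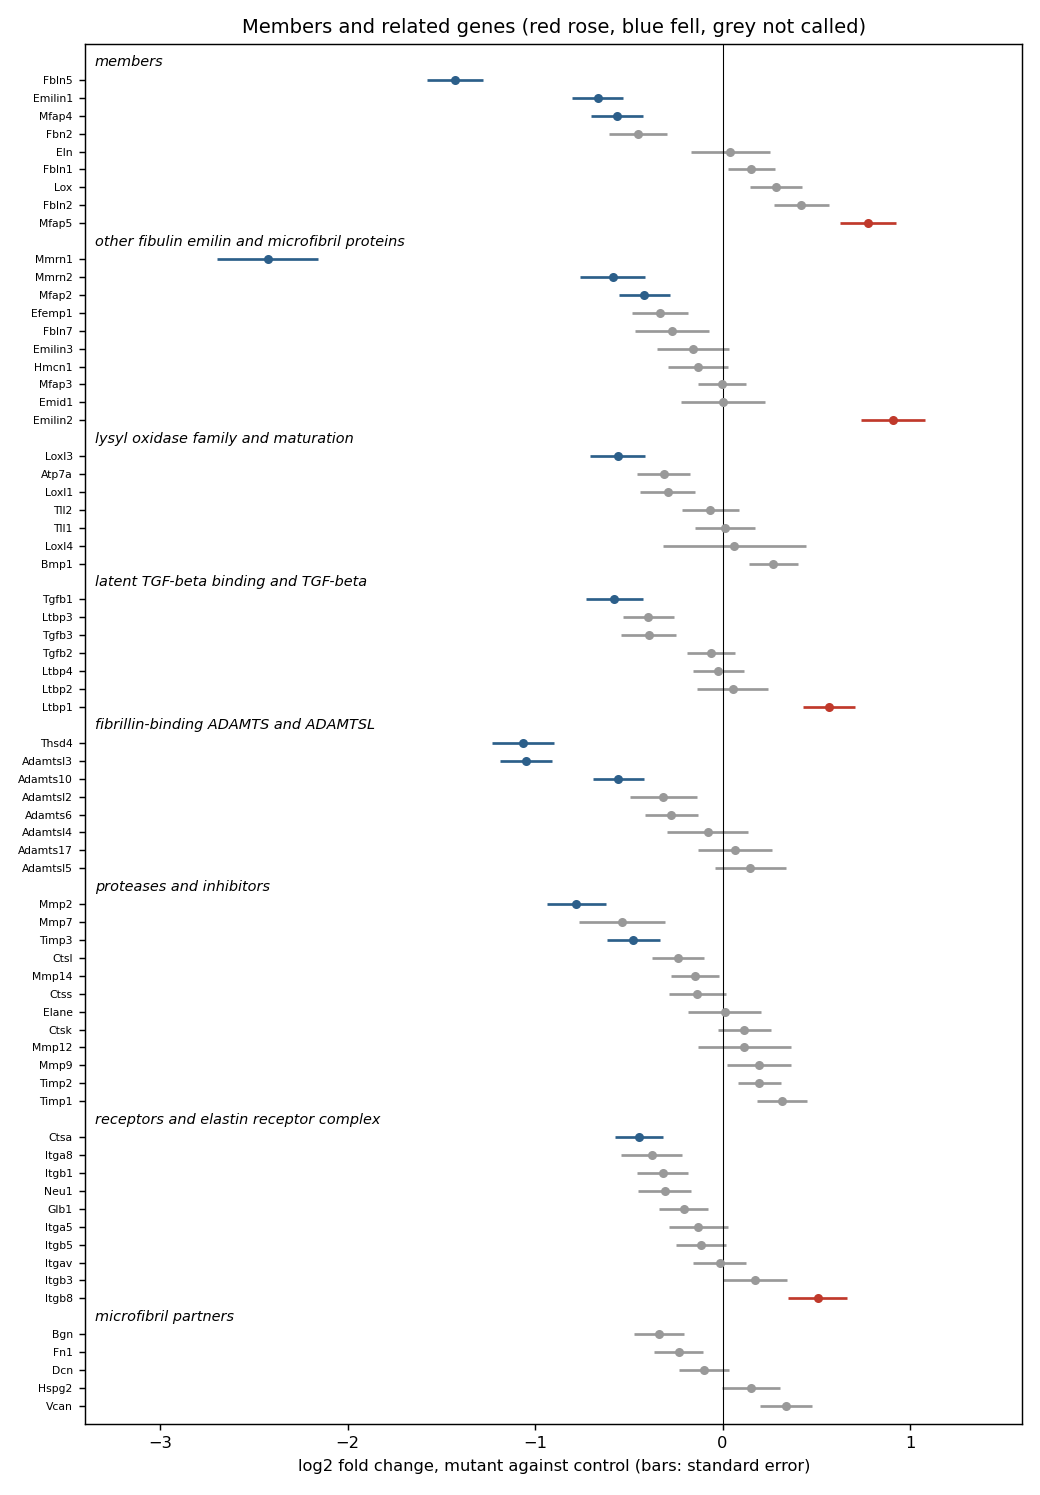
Log2 fold change, mutant against control, with its SE, for the 9 members and the related genes in 7 groups (red rose, blue fell, grey not called). Mmrn1 lies lowest at -2.43 and Emilin2 highest at 0.91.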

How the data were processed

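The authors summarised the arrays with PLIER and deposited 1 linear intensity for each of 35557 probe sets. The version of PLIER, its settings and whether arrays were scaled to each other are not given in the sources used here. Intensities are relative within a probe set, so levels of different genes were not ranked. Of the probe sets 21789 carry 1 symbol, 1621 several and 12147 are not listed in the platform table. Each gene was represented by its single-symbol probe set of highest mean.

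Values were taken as log2(intensity + 16), which understates folds of dim genes, and groups were compared by a two-sided moderated test (lmFit, then eBayes) of limma 3.58.1 under R 4.3.3. P-values were adjusted by Benjamini-Hochberg across 19938 genes. The scripts were tested on simulated data. Named genes are the members, up to 4 genes per list with the smallest adjusted p, Pdgfc and Pdgfra, and the 3 genes most like each member. Xist, Dcn, B2m, Sdha and the fibroblast markers were chosen after their values were seen. The members and lists were chosen with earlier results of these data known. The genes Efemp2, Loxl2 and Fkbp10 were not analysed here. Figures used matplotlib 3.10.9. Arrays have no read depth, so the number of mice, 4 and 9, limits the precision. All mice are of 1 litter. Alternatives covered the test, normalization and centring, the constant, filters on dim genes, array weights, the Xist level, the replicate number and each mouse left out.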

Additional observations from a re-analysis of the deposited data

How the results depend on the processing

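The calls of Fbln5 and Emilin1 held under all 30 other settings, that of Mfap4 under 28 and that of Mfap5 under 29. Mfap4 lost its call centred on fibroblast genes and under the replicate block, at -0.56 (adjusted p = 0.0566), a run that rests on mutants and controls 1 to 4 and left 1 member risen and 2 fallen. The replicate block changed no other call of a member. The labels do not say that shared numbers pair the mice. Same-numbered mutants and controls deviated from their group means with correlations of -0.344, 0.162, 0.307 and -0.0926. These values were not centred by array, so they also hold the brightness of each array and cannot settle the question. The number of members that rose, 1 as reported, was 0 with unequal variances and 0 by the methods' t-test with its 2-fold limit (where 3.28% of all genes were higher and 0.797% lower), which left 1 fallen. It was 4 after quantile normalization and centred on reference or fibroblast genes, and 2 with a constant of 32, without the dimmer 25% or 50% of genes, with array quality weights, with robust variances that follow intensity, and without the 4 arrays of lowest median. Leaving out 1 mouse gave 1 to 2 risen and 3 to 4 fallen. Fbln2 was added without mutant 3, and Fbn2 without mutant 4 or control 1 or 7.

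Of the 59 related genes, 3 rose and 11 fell as reported. By the methods' t-test with its 2-fold limit on log2(intensity + 16) 0 and 3 did. With the ratio of mean intensities and no constant, chosen after seeing the data, 1 (Emilin2) and 3 did, and members again 0 and 1. With unequal variances 2 and 5 did. After quantile normalization 6 and 23 did, and centred on the array median 3 and 24. Centred on reference genes 7 and 6 did, and on fibroblast genes 19 and 4. With the Xist covariate 2 and 6 did, and with the replicate block 2 and 5. Leaving out 1 mouse gave 2 to 3 and 6 to 13, the lowest count of falls without mutant 3. Over all genes 1710 rose and 1258 fell, which became 2668 and 3617 by quantile normalization, 1808 and 2862 on the array median, 3164 and 767 on reference genes and 8270 and 485 on fibroblast genes. The cause of these shifts was not tested. Of the 7 pairs 6 passed, and 5 to 6 without 1 mouse.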
